A study of Arabidopsis thaliana with 8 samples.

Results

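WRKY genes encode one of the large families of plant transcription factors, and 52 Arabidopsis loci of the family were followed here in the stem. They were chosen as a fixed list of loci, without WRKY12, and the list does not hold all other members (WRKY62, for example, is not on it). Counts and rankings in the family or in a group below refer to the loci on this list. Each locus was matched to array probes through the RefSeq transcript that the probe was designed on. Probes on the array matched 25410 loci in all. Of the 52 on the list, 51 had a probe (WRKY4 had none), and 42 were bright enough to be tested. WRKY proteins bind the W box, a short promoter element, through a domain named for its conserved residues, which ends in a zinc finger. Many of the genes are themselves switched on within minutes to hours by pathogens, wounding, salicylic acid or osmotic stress, often downstream of a MAP kinase cascade, and many carry W boxes in their own promoters, so that members regulate each other. In the stem the family is also known for members that act on the cell walls of pith and sclerenchyma. The members are grouped by the number of WRKY domains and the kind of zinc finger into groups I, IIa to IIe and III. That grouping is textbook knowledge and was not checked against protein sequences here.

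RNA from 10 cm stems of Col0 plants, raised on soil at 23 °C under a cycle of 16 h light and 8 h darkness, was measured on 8 single-colour Agilent arrays. The first group held 4 arrays of nst1-1 nst3-1 plants with the transgene NST3pro:CEF2-VP16:HSP. These are referred to as CEF2-VP16, and in them the promoter of NST3, active in fibers, drives an AP2/ERF factor joined to the viral activation domain VP16. The second group held 4 arrays of nst1-1 nst3-1 plants without the construct, called nst1 nst3 below. By their labels both groups carry the mutations in NST1 and NST3, the NAC factors that start secondary wall formation in fibers, and a wild type is not part of the comparison. The factor is CEF2 in the sample labels and ERF035 in the design text of the series. The labels give neither the number of transgenic lines nor whether replicate arrays stem from different plants. The p-values therefore rest on the spread among 4 arrays per group, and that spread may be technical.

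All values below are log2 ratios of a probe's processed signal to the array's 75th percentile, which was 2344 to 3255 signal units on the CEF2-VP16 arrays and 2774 to 3642 on the nst1 nst3 arrays, and differences are CEF2-VP16 minus nst1 nst3. A value of 0 means a signal equal to that percentile, and values were held at a floor of -6.64. ERF035 (AT3G60490) was higher by 7.72 ± 0.68 in CEF2-VP16 stems (SE, n = 4 per group), and the groups did not overlap. NST3 (AT1G32770) was above background on all 8 arrays, at 0.19 ± 0.27 in CEF2-VP16 and 0.71 ± 0.41 in nst1 nst3 (SD, n = 4 each), and so was NST1 (AT2G46770), at -3.60 ± 0.42 in CEF2-VP16 and -3.07 ± 0.35 in nst1 nst3. No label places these probes inside or outside the mutated parts of the genes, so they do not check the mutant genotype. Each genotype filled a slide of its own, and the effects of slide and genotype cannot be told apart. RNA of the whole stem was measured, so that fewer cells of a type and less RNA per cell cannot be told apart either. Of 7 epidermis markers 6 were higher in CEF2-VP16 stems (summed signal 132 to 154 times the percentile, against 55.6 to 101 in nst1 nst3), and of 8 mesophyll markers 7 were higher (1421 to 1863, against 1061 to 1497). Of 6 tested vessel markers 4 were higher and 1 lower (31.9 to 36.7, against 15.6 to 30.6). Of 6 tested phloem markers 2 were higher and 2 lower (40.7 to 51.2, against 44.4 to 50.3). The shares higher were 85.7% (epidermis), 87.5% (mesophyll), 66.7% (vessel) and 33.3% (phloem), beside 29.5% of all genes tested. The shares lower were 16.7% (vessel) and 33.3% (phloem), beside 24.8% of all genes tested. The part of these cell types in the WRKY differences was not tested.

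More WRKY genes were lower than higher in CEF2-VP16 stems. Of the 42 tested, 19 were lower and 7 higher at a Benjamini-Hochberg adjusted p under 0.05 from limma's moderated test over 19609 genes, and 16 passed in neither direction; 54.2% of all genes passed in either. The share called lower was 45.2%, beside 24.8% of all genes tested, and the share called higher was 16.7%, beside 29.5%. The median difference of the tested members was -0.53, beside 0.03 over all genes, with 32 members below 0 and 10 above. Among the members called lower, 13 fell at least 2-fold (10.5% of all genes did), 9 by at least 2 log2 units (3.48% of all genes) and 6 by at least 4 log2 units (0.602% of all genes). WRKY54 and WRKY50 were the members called higher by at least 2-fold, beside 10.7% of all genes. Fully separate groups, without overlap, were seen in 21 of the 42 members, beside 50.7% of all genes. CEF2-VP16 lay below in 16 of these members (22.7% of all genes) and above in 5 (27.9% of all genes). Of these 5, WRKY38 stood at the floor on all 4 nst1 nst3 arrays, so its separation rests on no spread there.

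The balance of higher and lower calls moved with the scaling. When the arrays were scaled on the E1A spike-in RNA, 27 members were lower and 2 higher, beside 40% and 10.5% of all genes, and the median difference was -0.98, beside -0.40 over all genes. All 19 members called lower stayed lower under that scaling, while of the 7 called higher only WRKY54 and WRKY38 stayed called. WRKY38 was above background on no nst1 nst3 array, so its kept call sets signal against values not above background. From the authors' deposited log values, 15 members were lower and 2 higher, beside 15.2% and 21.5% of all genes. Leaving out 1 array at a time gave 15 to 23 lower members, beside 20.9% to 27.7% of all genes, and 4 or 5 higher members, beside 25.0% to 30.2%.

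**Figure D1:**
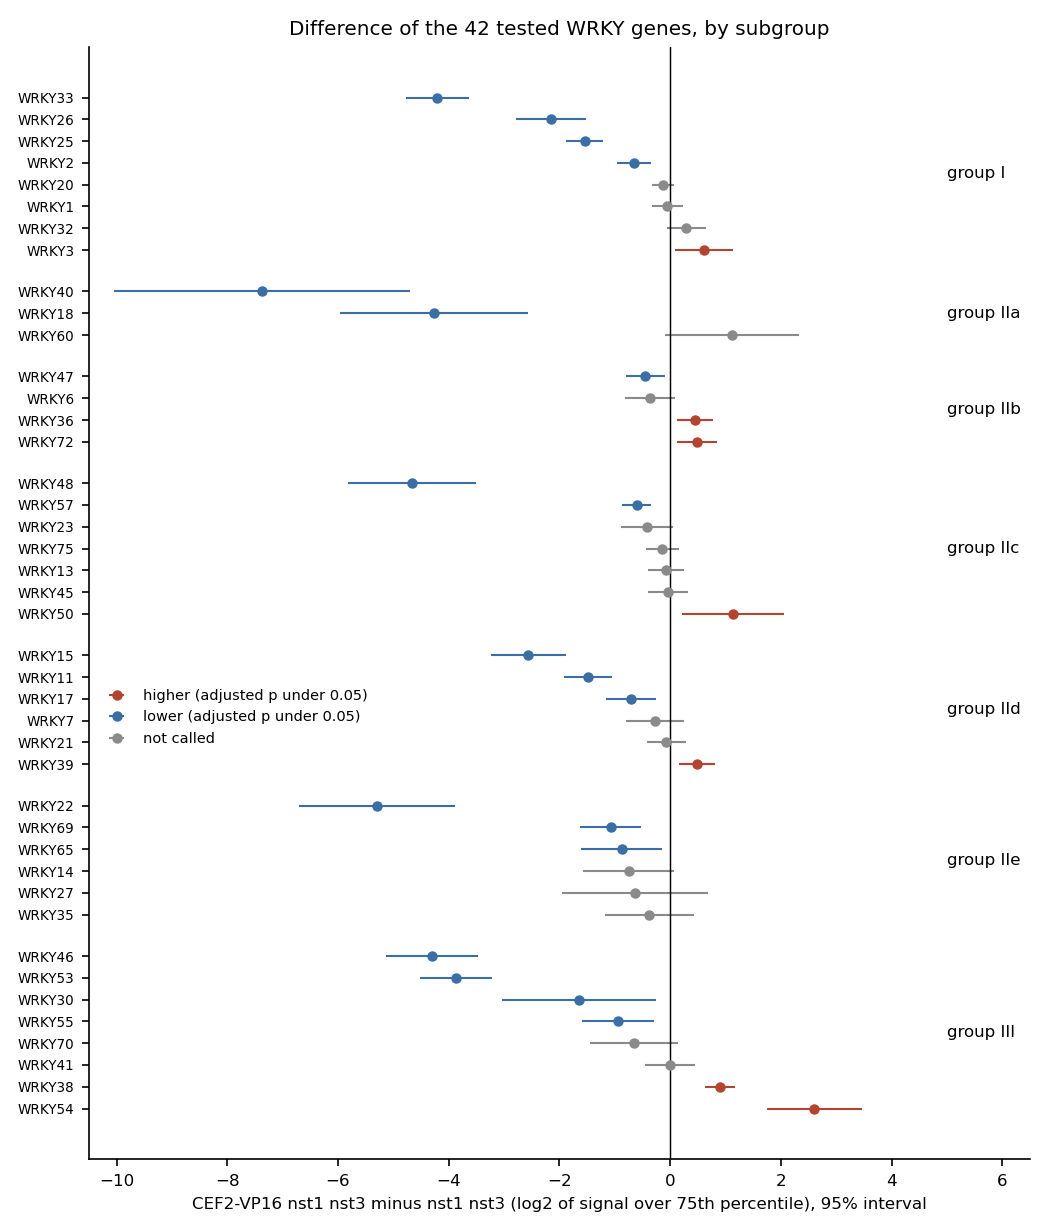
Difference between CEF2-VP16 nst1 nst3 and nst1 nst3 stems for the 42 tested WRKY genes, in log2 units of signal over the 75th percentile, with the 95% confidence interval of the moderated fit, sorted within each WRKY group. The 19 genes called lower (blue) reach from WRKY40 at -7.37 to WRKY47 at -0.45, the 7 called higher (red) reach from WRKY36 at 0.45 to WRKY54 at 2.61, and the 16 not called are grey.

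Group IIa holds WRKY18, WRKY40 and WRKY60, which carry a leucine zipper, bind each other and are known as modulators of immunity and of abscisic acid responses. Of the 3, WRKY40 and WRKY18 fell and WRKY60 was not called. WRKY40 (AT1G80840) read -4.69, -2.14, -3.75 and -3.19 on CEF2-VP16 arrays 1 to 4, against 5.50, 5.04, 0.28 and 4.90 on nst1 nst3 arrays 1 to 4. All CEF2-VP16 arrays lay below all nst1 nst3 arrays, of which array 3 was far below the others. The difference was -7.37 ± 1.16 (SE, n = 4 per group; limma adjusted p = 0.00123), the largest in the family. Without nst1 nst3 array 3 it was -8.59.

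WRKY18 (AT4G31800) read 0.42, 0.77, 0.59 and 0.83 on the CEF2-VP16 arrays, against 5.99, 6.10, 2.48 and 5.07 on the nst1 nst3 arrays. The CEF2-VP16 arrays lay close together, and nst1 nst3 array 3 was again the lowest of its group without reaching them. WRKY18 fell by 4.26 ± 0.74 (limma adjusted p = 0.00194), or by 5.07 without nst1 nst3 array 3. WRKY60 (AT2G25000), known as a target of WRKY18 and WRKY40, read -0.64, -1.44, -1.74 and 0.95 on the CEF2-VP16 arrays, against -1.82, -1.85, -1.81 and -1.87 on the nst1 nst3 arrays. Here the nst1 nst3 arrays were nearly equal, and all 4 CEF2-VP16 arrays lay above them but were spread over 2.68 log2 units, with array 4 the highest. The difference of 1.12 ± 0.52 did not pass (limma adjusted p = 0.105), and its 95% interval ran from -0.09 to 2.33.

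Group I members carry a pair of WRKY domains. WRKY33 (AT2G38470), a substrate of MPK3 and MPK6 that activates camalexin synthesis and resistance to necrotrophic fungi, read -1.05, 0.10, -0.97 and -0.44 on the CEF2-VP16 arrays, against 3.83, 3.50, 3.62 and 3.55 on the nst1 nst3 arrays. Its 4 nst1 nst3 arrays lay within 0.33 log2 units, and array 3 was not apart from the others. WRKY33 fell by 4.21 ± 0.25 (SE, n = 4 per group; limma adjusted p = 3.06e-05), with the smallest adjusted p in the family.

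WRKY26 and WRKY25 are the closest relatives of WRKY33 and act with it in heat tolerance. WRKY26 (AT5G07100) read -1.57, -0.67, -1.46 and -1.51 on the CEF2-VP16 arrays, against 0.96, 0.20, 1.23 and 0.99 on the nst1 nst3 arrays, and fell by 2.14 ± 0.27 (limma adjusted p = 0.000477). WRKY25 (AT2G30250) read -0.59, -0.39, -0.81 and -0.73, against 1.04, 1.13, 0.91 and 0.57, and fell by 1.54 ± 0.15 (limma adjusted p = 0.000147). Neither gene's groups overlapped. For WRKY26 the highest CEF2-VP16 array was array 2 and the lowest nst1 nst3 array was array 2.

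WRKY2, which acts in zygote polarity and pollen development, fell by 0.66 ± 0.13 (limma adjusted p = 0.00405). WRKY3, which acts with WRKY4 against necrotrophic fungi, moved the other way. WRKY3 (AT2G03340) read 0.14, -0.09, 0.11 and -0.13 on the CEF2-VP16 arrays, against -0.76, -1.22, -0.15 and -0.29 on the nst1 nst3 arrays, with a gap between the groups of less than 0.1 log2 units. It was called higher by 0.61 ± 0.23 (limma adjusted p = 0.0489), just inside the threshold, and it lost the call when any one of the 4 CEF2-VP16 arrays or nst1 nst3 array 1 or 2 was left out (0.41 to 0.66). WRKY1, WRKY20 and WRKY32 were not called.

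Of the 8 tested members of group III, 4 were lower (50%, beside 24.8% of all genes). Another 2 were higher (25%, beside 29.5%), and 2 were not called. WRKY46, WRKY54 and WRKY70 are known to act together in brassinosteroid and salicylic acid responses. WRKY46 (AT2G46400) read -1.65, -0.39, -1.65 and -1.50 on the CEF2-VP16 arrays, against 3.63, 2.95, 2.31 and 3.14 on the nst1 nst3 arrays. CEF2-VP16 array 2 was the highest of its group and still far below every nst1 nst3 array. WRKY46 fell by 4.30 ± 0.36 (SE, n = 4 per group; limma adjusted p = 9.4e-05).

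WRKY54 (AT2G40750) read 0.21, 0.22, -0.72 and -0.57 on the CEF2-VP16 arrays, against -1.81, -3.06, -3.06 and -3.35 on the nst1 nst3 arrays. Every CEF2-VP16 array was higher, by at least 1 log2 unit, than every nst1 nst3 array. The difference of 2.61 ± 0.37 (limma adjusted p = 0.000813), or 6.09-fold, was the largest rise in the family, and it was called under all alternatives run, between 2.16 and 2.94. WRKY70 (AT3G56400) read 2.93 ± 0.61 in CEF2-VP16 and 3.58 ± 0.50 in nst1 nst3 (SD, n = 4 each) and was not called (-0.65, limma adjusted p = 0.145), but passed without CEF2-VP16 array 2 (-0.91). Of these 3 genes, then, WRKY46 fell, WRKY54 rose and WRKY70 did not pass.

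WRKY54 and WRKY55 are next to each other in the genome, with 0 protein-coding genes between them in the gene table. WRKY55, which acts in leaf senescence and pathogen defence, fell by 0.94 ± 0.28 (limma adjusted p = 0.0234), so that the neighbours were called in opposite directions. WRKY55 stood at the floor on 2 CEF2-VP16 arrays, and it lost its call without any one of nst1 nst3 arrays 1 and 4 and CEF2-VP16 arrays 3 and 4 (-0.84 to -0.75).

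WRKY53 (AT4G23810), a positive regulator of leaf senescence, read -2.87, -2.07, -3.29 and -2.72 on the CEF2-VP16 arrays, against 1.54, 0.61, 1.32 and 1.05 on the nst1 nst3 arrays. The groups were separate on every array, with array 2 the highest in CEF2-VP16 and the lowest in nst1 nst3. WRKY53 fell by 3.87 ± 0.29 (SE; limma adjusted p = 6.62e-05). WRKY38, which represses basal defence together with WRKY62, was above background on all 4 CEF2-VP16 arrays (-5.60, -6.09, -5.72 and -5.57) and on no nst1 nst3 array, where it stood at the floor. It passed the brightness filter only through the CEF2-VP16 arrays. Its nst1 nst3 values were set by the floor, so its call as higher rests on no spread in that group. It has only a bound, at least 1.86-fold higher in CEF2-VP16. This bound sets the mean of the CEF2-VP16 arrays against the higher of the dim probe's own level and the lowest level above background on each nst1 nst3 array.

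WRKY30, which responds to oxidative stress, was called lower by 1.65 ± 0.60 (limma adjusted p = 0.0471) although its groups overlapped. It lost the call without any one of nst1 nst3 arrays 1, 3 and 4 and CEF2-VP16 arrays 1, 3 and 4 (-1.74 to -1.32). WRKY41 (AT4G11070), known in seed dormancy and defence, read -6.24, -5.36, -5.97 and -6.20 on the CEF2-VP16 arrays, against -5.76, -6.01, -6.11 and -5.92 on the nst1 nst3 arrays. The groups overlapped fully, and the difference of 0.00 was the smallest in the family, with a 95% interval from -0.45 to 0.46.

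**Figure D2:**
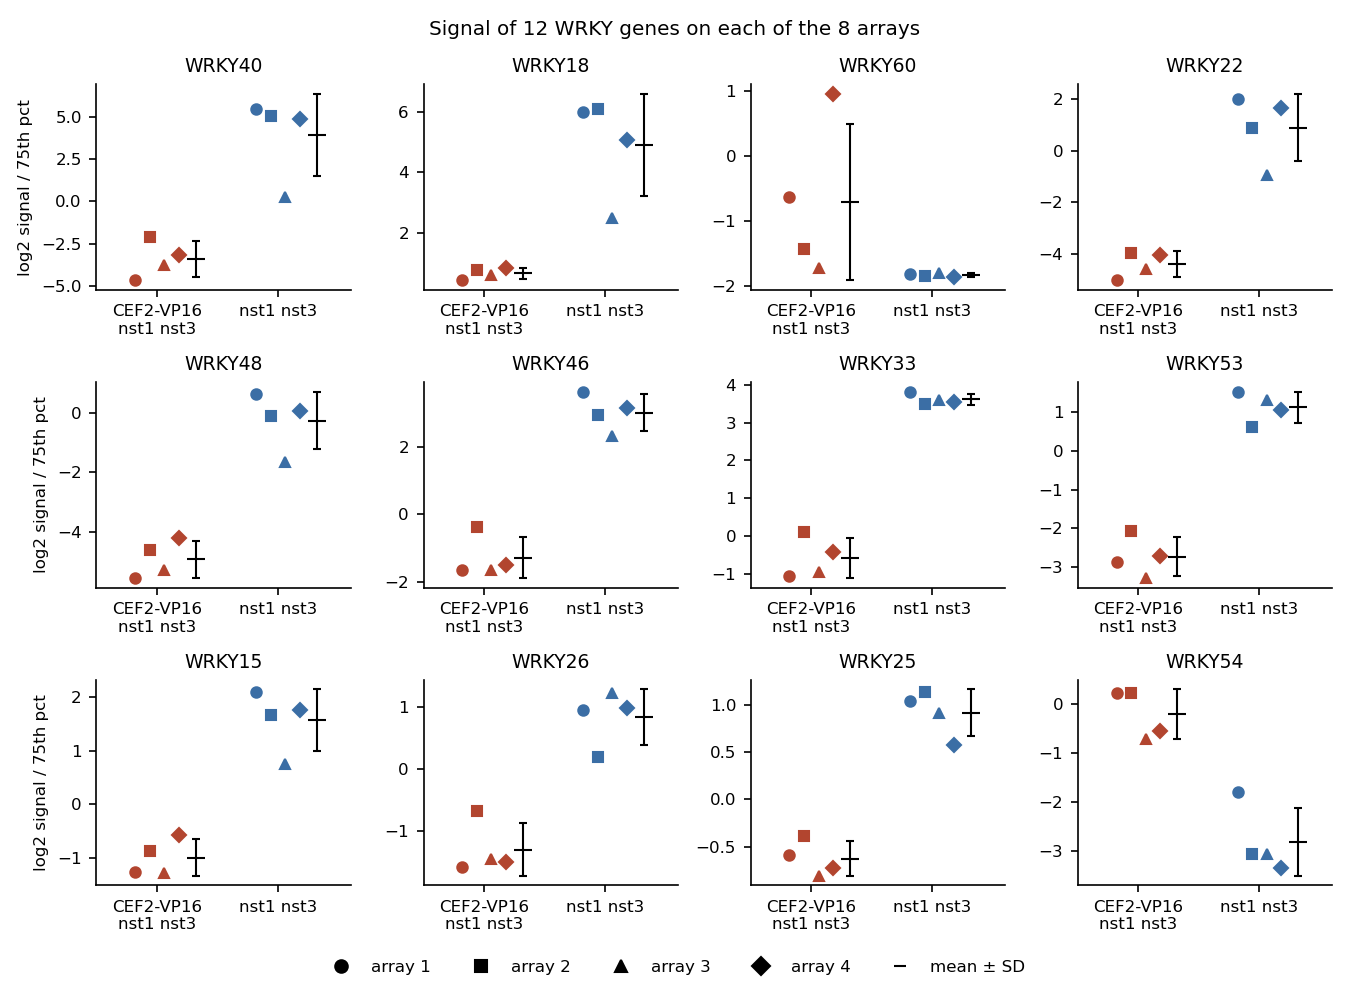
Log2 signal over the 75th percentile of 12 WRKY genes on the 4 CEF2-VP16 nst1 nst3 arrays (red) and the 4 nst1 nst3 arrays (blue), each panel on its own scale, with marker shapes for array number and black bars for the mean ± SD of a group. The groups are separate in all 12 panels, CEF2-VP16 being lower in 10 and higher for WRKY60 and WRKY54, and nst1 nst3 array 3 lies below its group for WRKY40 (0.28) and WRKY18 (2.48) but within it for WRKY33 (3.62).

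Group IIe holds WRKY22, an early gene of the response to bacterial flagellin. WRKY22 (AT4G01250) read -5.02, -3.95, -4.59 and -4.03 on the CEF2-VP16 arrays, against 2.0, 0.87, -0.93 and 1.66 on the nst1 nst3 arrays. The groups did not overlap, and nst1 nst3 array 3 was the lowest of its group. WRKY22 fell by 5.30 ± 0.61 (SE, n = 4 per group; limma adjusted p = 0.00031), the second largest fall, and by 5.91 without nst1 nst3 array 3. Of the other 5 tested members of the group, WRKY69 (-1.08 ± 0.24, limma adjusted p = 0.00663) and WRKY65 (-0.88 ± 0.32, limma adjusted p = 0.0473) were lower. WRKY65 lost its call when any array except nst1 nst3 array 2 was left out (-0.99 to -0.67). WRKY14, WRKY27 and WRKY35, with differences of -0.75 to -0.37, were not called, although WRKY14 (-1.05) and WRKY35 (-0.71) passed without nst1 nst3 array 2.

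Group IId members bind calmodulin, and 3 of the 6 listed were lower (50%, beside 24.8% of all genes) and 1 higher (16.7%, beside 29.5%). WRKY15 (AT2G23320), known for a role in salt and osmotic stress, read -1.26, -0.87, -1.27 and -0.56 on the CEF2-VP16 arrays, against 2.10, 1.66, 0.76 and 1.77 on the nst1 nst3 arrays. All CEF2-VP16 arrays were below all nst1 nst3 arrays, and nst1 nst3 array 3 was the lowest of its group. WRKY15 fell by 2.56 ± 0.29 (SE, n = 4 per group; limma adjusted p = 0.000309).

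The related WRKY11 and WRKY17, negative regulators of basal resistance to bacteria, both fell, WRKY11 by 1.48 ± 0.19 (limma adjusted p = 0.000471) and WRKY17 by 0.71 ± 0.20 (limma adjusted p = 0.0159). WRKY39 (AT3G04670), which acts in heat responses, read 0.16, 0.21, 0.20 and 0.16 on the CEF2-VP16 arrays, against -0.72, -0.20, -0.07 and -0.23 on the nst1 nst3 arrays. Its CEF2-VP16 arrays lay within 0.05 log2 units of each other and above the other group, a rise of 0.49 ± 0.14 (limma adjusted p = 0.0184) that came to 0.04 with spike-in scaling. WRKY21 (AT2G30590) read 0.64, 0.95, 0.82 and 1.11, against 1.01, 0.61, 1.24 and 0.92, and with WRKY7 was not called.

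Group IIc had 1 large fall among 7 tested members. In all, 2 were called lower (28.6%, beside 24.8% of all genes) and 1 higher (14.3%, beside 29.5%). WRKY48 (AT5G49520), known as a repressor of basal defence, read -5.56, -4.61, -5.29 and -4.21 on the CEF2-VP16 arrays, against 0.63, -0.09, -1.64 and 0.08 on the nst1 nst3 arrays. The groups did not overlap, and nst1 nst3 array 3 was the lowest of its group. WRKY48 fell by 4.67 ± 0.50 (SE, n = 4 per group; limma adjusted p = 0.000238). WRKY57, which acts in drought tolerance and in jasmonate-induced leaf senescence, fell by 0.61 ± 0.11 (limma adjusted p = 0.0027).

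WRKY50, which takes part in the repression of jasmonate responses by salicylic acid, was called higher by 1.14 ± 0.40 (limma adjusted p = 0.0417) although its groups overlapped, and it lost the call without any one of nst1 nst3 arrays 2, 3 and 4 and CEF2-VP16 arrays 1, 2 and 4 (0.84 to 1.26). WRKY13 (AT4G39410), a member with a known role in stem sclerenchyma, read -1.41 ± 0.17 in CEF2-VP16 and -1.34 ± 0.23 in nst1 nst3 (SD, n = 4 each), and its difference of -0.07 was not called (limma adjusted p = 0.686; 95% interval -0.39 to 0.25). It was named for that role with its values known. WRKY45 (AT3G01970), which acts in phosphate uptake and senescence, read -2.36, -1.96, -2.0 and -1.81, against -2.28, -2.13, -1.78 and -1.83, with groups that overlapped. WRKY23, which acts in auxin-dependent root development, was not called with all arrays (-0.42) and passed without nst1 nst3 array 2 (-0.61).

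WRKY75, a regulator of phosphate starvation responses and senescence, lay near the floor. It was above background on 0 CEF2-VP16 arrays and on all 4 nst1 nst3 arrays, at signals of 0.194% to 0.333% of the 75th percentile, against 0.904% to 1.46% in nst1 nst3. All 4 CEF2-VP16 values and 2 of the nst1 nst3 values stood at or under the floor, and the gene was not called (-0.14, limma adjusted p = 0.409). With a floor of 0.001 in place of 0.01 of the percentile its difference was -1.91 and it was called lower. Its bound was at least 1.04-fold lower in CEF2-VP16.

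Group IIb differences were small. WRKY36 (0.45 ± 0.14, limma adjusted p = 0.0268) and WRKY72 (0.48 ± 0.16, limma adjusted p = 0.0324) were called higher, WRKY47 (-0.45 ± 0.15, limma adjusted p = 0.0361) was called lower, and the groups of each overlapped. Both rises lay near the floor of -6.64. WRKY36 had means of -5.91 in CEF2-VP16 and -6.37 in nst1 nst3, and stood at the floor on 1 nst1 nst3 array. WRKY72 had means of -5.88 and -6.37. WRKY36 lost its call without nst1 nst3 array 1, 2 or 4 or CEF2-VP16 array 2 or 3 (0.36 to 0.46). WRKY72 lost it without nst1 nst3 array 3 or 4 or CEF2-VP16 array 1, 3 or 4 (0.39 to 0.50). WRKY47 lost it without those same arrays (-0.44 to -0.36). With spike-in scaling neither rise was called, at 0.02 for WRKY36 and 0.03 for WRKY72. WRKY6, a regulator of senescence and of phosphate transport, was not called (-0.37, limma adjusted p = 0.143) but passed without nst1 nst3 array 2 (-0.51). WRKY1 (AT2G04880) of group I, among the 4 smallest differences of the family, read 1.1, 1.14, 1.20 and 1.02 on the CEF2-VP16 arrays, against 0.99, 0.97, 1.46 and 1.26 on the nst1 nst3 arrays.

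The 9 members left untested were WRKY8, WRKY9, WRKY28, WRKY29, WRKY31, WRKY42, WRKY44, WRKY51 and WRKY71, each above background on fewer than 4 of the 8 arrays. WRKY8, WRKY9 and WRKY31 were above background on none. WRKY51, which acts with WRKY50, was above background on 3 nst1 nst3 arrays and on no CEF2-VP16 array, with signals of 0.667% to 0.915% of the percentile in CEF2-VP16, against 0.529% to 5.85% in nst1 nst3. Its bound was at least 2.20-fold lower in CEF2-VP16, with no test. WRKY29, which acts beside WRKY22 in the flagellin response, was likewise above background on 3 nst1 nst3 arrays and on no CEF2-VP16 array, at least 1.12-fold lower. Different probes of a gene gave like answers where several could be tested, in 16 of the 19 tested members with several probes. Of these 16, 15 had the same call on all probes, none had opposite calls, and the widest gap between 2 probes was 0.14 log2 units. The second probe of WRKY3 (0.51) did not pass. Second probes too dim to test were those of WRKY38 (above background on 2 CEF2-VP16 arrays, difference 0.18), WRKY72 (on no array) and WRKY75 (on 2 nst1 nst3 arrays).

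Replicate arrays differed more for the median WRKY gene than for the median gene of the array, in both groups. The median SD of a tested member was 0.23 in CEF2-VP16 and 0.39 in nst1 nst3, beside 0.13 and 0.21 over all genes. The tested members were also dimmer. Their median level was -1.79 to -1.59 on the CEF2-VP16 arrays, beside -0.56 to -0.54 over all genes. On the nst1 nst3 arrays it was -1.30 to -0.56, beside -0.62 to -0.55. The part of brightness in the spread was not tested. For 34 of the 42 members the SD was larger in nst1 nst3 (81.0%, beside 73.3% of all genes). CEF2-VP16 array 2 read 20 of the 42 members highest in its group (47.6%, beside 23.5% of all genes), and nst1 nst3 array 2 read 22 members lowest in its group (52.4%, beside 33.1%).

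Among the strongest falls, arrays 2 and 3 shared the lowest nst1 nst3 values. Of the 9 members that fell at least 4-fold, nst1 nst3 array 3 was the lowest of its group for WRKY40, WRKY18, WRKY22, WRKY48, WRKY46 and WRKY15, and array 2 was the lowest for WRKY33, WRKY53 and WRKY26. Array 1 was the highest for 7 of the 9. In CEF2-VP16, array 1 was the lowest for 7 of the 9 and array 2 the highest for 6. Each of these 9 kept its call with any 1 array left out, as did 15 of all 19 members called lower and 3 of the 7 called higher (WRKY54, WRKY38 and WRKY39). For WRKY38, leaving out nst1 nst3 arrays could not test the call, since all their values stood at the floor.

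**Figure D3:**
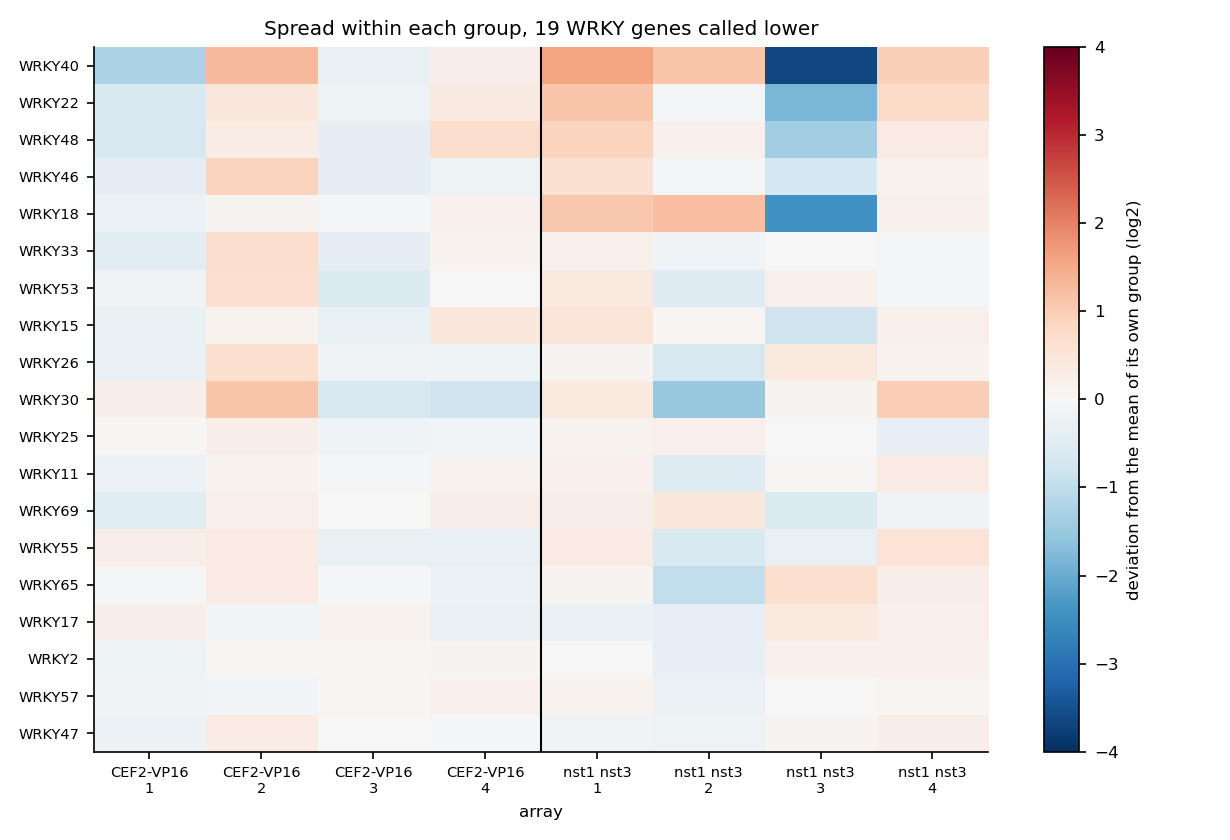
Deviation of each array from the mean of its own group (log2 units) for the 19 WRKY genes called lower, in rows from the largest fall (WRKY40) to the smallest (WRKY47), with the CEF2-VP16 nst1 nst3 arrays to the left of the line and the nst1 nst3 arrays to the right. The nst1 nst3 array 3 is lowest for 6 of the 9 largest falls, while WRKY33, WRKY53 and WRKY26 have their lowest nst1 nst3 value on array 2.

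**Figure D4:**
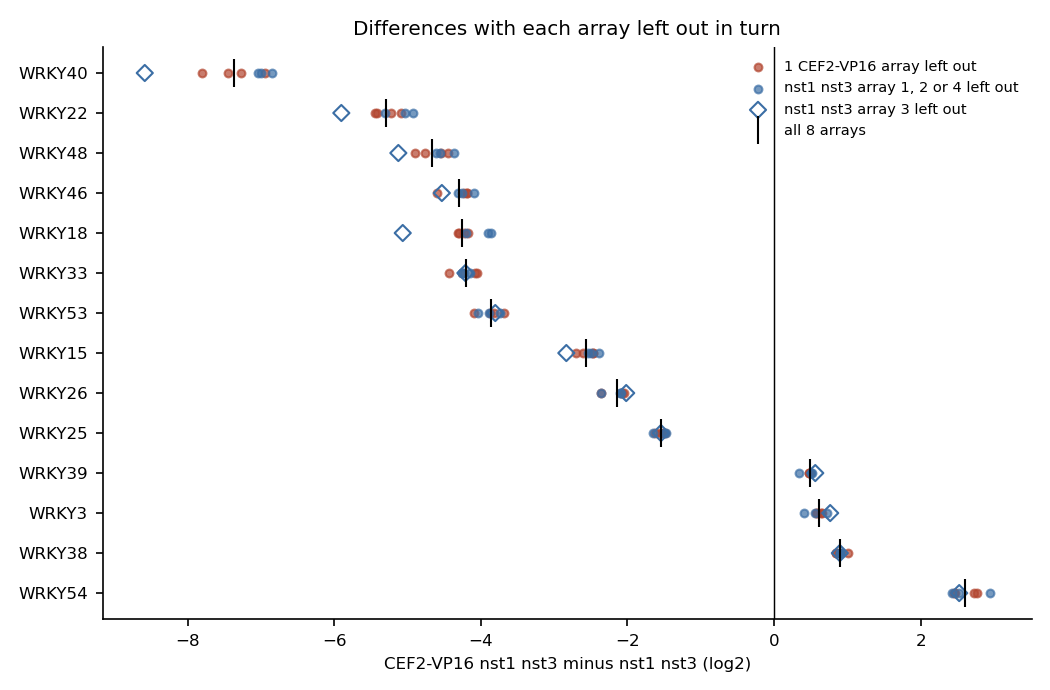
Difference between CEF2-VP16 nst1 nst3 and nst1 nst3 stems (log2 units) for the 10 largest falls and the 4 called rises whose groups do not overlap, with all 8 arrays (black bar) and with each array left out in turn (points). Leaving out nst1 nst3 array 3 (open diamonds) takes WRKY40 to -8.59, WRKY22 to -5.91 and WRKY18 to -5.07, while WRKY33 and WRKY25 hardly move.

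A list of 13 genes that are known to respond rapidly to touch and wounding was summed on each array. All 13 were lower in CEF2-VP16, beside 24.8% of all genes, with a median difference of -3.97, beside 0.03 over all genes. The list, like the gene lists that follow, was chosen with earlier results of these data known. It includes RRTF1 (-9.35), the largest fall among all genes tested. Its share lower is therefore no independent support for the WRKY differences. Their summed signal was 13.7, 43.5, 16.5 and 26.4 times the 75th percentile on CEF2-VP16 arrays 1 to 4, against 510, 458, 138 and 347 on nst1 nst3 arrays 1 to 4. It was lowest on CEF2-VP16 array 1 and highest on array 2, and within nst1 nst3 it was highest on array 1 and lowest on array 3. The part of a touch or wound response in the WRKY differences was not tested.

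Genes listed for MAP kinase cascades, some of which act upstream of WRKY33 and WRKY22, were also more often lower than higher. The list holds kinases and the phosphatases AP2C1, MKP1 and PTP1, and AP2C1 and MKP1 were among those lower. The counts therefore do not give the direction of a cascade's activity. Of 17 genes listed and tested 9 were lower (52.9%, beside 24.8% of all genes) and 1 higher (5.88%, beside 29.5%), with a median difference of -0.53, beside 0.03 over all genes. AP2C1, a phosphatase that inactivates MPK4 and MPK6, fell by 4.46 ± 0.79 (SE; limma adjusted p = 0.0022). The kinases MPK11 and MPK3 fell by 3.21 ± 0.62 (limma adjusted p = 0.00327) and 2.74 ± 0.19 (limma adjusted p = 5.15e-05), and MKK5, which phosphorylates MPK3 and MPK6, fell by 2.28 ± 0.26 (limma adjusted p = 0.000283). MPK3 read -0.12, 0.66, 0.07 and 0.21 on the CEF2-VP16 arrays, against 3.28, 2.92, 2.84 and 2.75 on the nst1 nst3 arrays, with no overlap. MPK6 and MPK4, named after their values were seen, had differences of 0.02 and 0.00 and were not called.

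VQ-motif proteins bind WRKY domains and modulate their activity. Of 34 listed 24 were tested, and 12 of these were lower (50%, beside 24.8% of all genes) and 2 higher (8.33%, beside 29.5%), with a median difference of -0.54, beside 0.03 over all genes. AT2G22880 fell by 4.78 ± 0.83 (SE; limma adjusted p = 0.002), AT3G56880 fell by 2.62 ± 0.37 (limma adjusted p = 0.000759), and MKS1, which links MPK4 to WRKY33 and WRKY25, fell by 2.45 ± 0.31 (limma adjusted p = 0.000463). AT1G21326, also called lower, was not above background on any CEF2-VP16 array and stood at the floor there. Its call rests on no spread in that group, and it has only a bound, at least 6.95-fold lower in CEF2-VP16.

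Genes described elsewhere as targets of WRKY factors were divided. Of 9 listed 6 were tested, 3 were lower (50%, beside 24.8% of all genes) and none was higher (beside 29.5%), with a median difference of -1.15, beside 0.03 over all genes. ACS6 and ACS2, which make the ethylene precursor and are known WRKY33 targets, fell by 3.85 ± 0.59 (SE; limma adjusted p = 0.00106) and 2.04 ± 0.58 (limma adjusted p = 0.0179). NHL10, a marker of the flagellin response, was called lower (-2.77 ± 0.56, limma adjusted p = 0.00392). NHL10 stood at the floor on 3 CEF2-VP16 arrays and ACS2 on 2, so that the sizes of these differences depend on the floor. PAD3, the last enzyme of camalexin synthesis (0.03), FRK1, a flagellin-induced receptor kinase (-0.08), and PHO1, a phosphate exporter (-0.27), were not called, and CYP71A12, CYP71A13 and PHT1;1 were too dim to be tested.

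**Figure D5:**
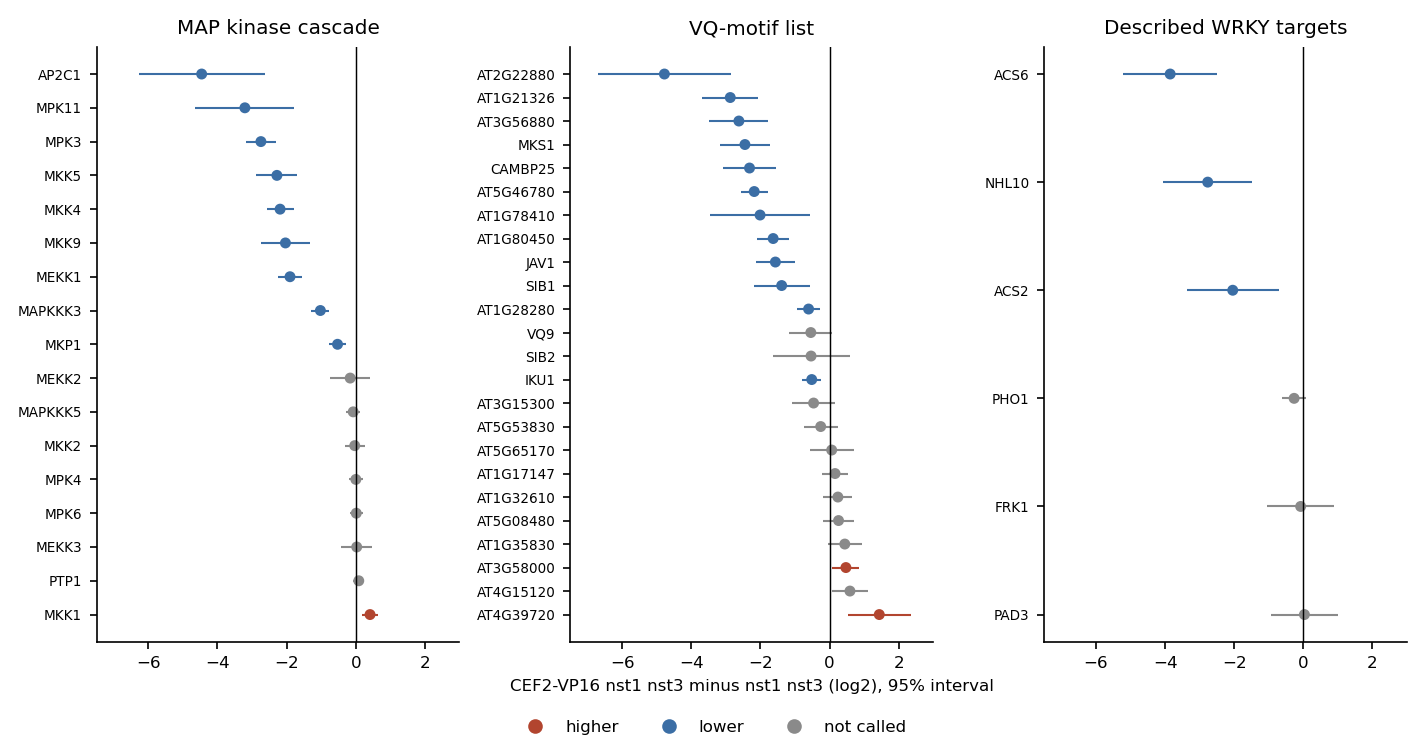
Difference between CEF2-VP16 nst1 nst3 and nst1 nst3 stems (log2 units of signal over the 75th percentile, with 95% confidence intervals) for the tested genes of the MAP kinase cascade, of the VQ-motif list and of described WRKY targets. In the 3 panels 9 of 17, 12 of 24 and 3 of 6 genes are called lower (blue), the largest falls being AP2C1 at -4.46, AT2G22880 at -4.78 and ACS6 at -3.85.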

How the data were processed

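Total RNA (200 ng) was labelled with Cy3 and hybridised to single-colour Agilent arrays, per the labels' protocols. The deposited processed signal is a background-corrected intensity, extracted with Agilent Feature Extraction 11.5.1.1 per the file headers, while the submitters' processing notes name 9.1.3.1. The table of natural log values that the authors deposited equals ln(processed signal) less a constant, 7.15 for CEF2-VP16 and 7.39 for nst1 nst3 arrays, and served as an alternative. Signals of non-control probes were divided by the 75th percentile of the array, held at a floor of 0.01 and taken to log2. Per array, 30289 to 32382 of its 43603 non-control probes were marked well above background, and 34348 probes matched 25410 loci in a RefSeq gene table of TAIR10.1. The array's build and that table are named differently, so coordinates are not given, and promoter and protein sequences were not used here. Probes above background on at least 4 of 8 arrays were kept and the brightest probe stood for a gene. Cross-hybridisation between close paralogs was not assessed. The groups, taken from the sample labels, were compared with limma 3.58.1 (lmFit and eBayes, no covariates, R 4.3.3), with p-values adjusted over all 19609 genes, and the script was tested on simulated data. The number of arrays limits the precision. Alternatives were normexp background correction of median signals (offset 50), other scalings, filters, floors and rules for probes, variance settings, a replicate block, other thresholds and leaving out arrays. The replicate numbers did not pair the samples. Values on every array were given for group IIa, the 10 largest falls and up to 5 largest rises called with groups that did not overlap, and the 4 smallest differences; up to 4 genes were named from each companion list. The members, lists and rules were chosen with earlier results of these data known. The gene names of most VQ-motif loci are not in the gene table, and those loci are given by their identifiers.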

Additional observations from a re-analysis of the deposited data

Results flagged for a closer look

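In 3 of the 38 sets of 4 arrays checked, 1 array stood far from the other 3 of its group; chance alone marks about 1 set in 20. WRKY46 read -0.39 on CEF2-VP16 array 2, against -1.65 to -1.50 on the other 3 CEF2-VP16 arrays. WRKY26 read -0.67 on the same array, against -1.57 to -1.46 on the others. WRKY40 read 0.28 on nst1 nst3 array 3, against 4.90 to 5.50 on the other 3 nst1 nst3 arrays. All 3 genes kept their calls without that array.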

How the results depend on the processing

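No member changed direction while called, and 13 of the 19 members called lower (WRKY2, WRKY11, WRKY15, WRKY18, WRKY22, WRKY25, WRKY26, WRKY33, WRKY40, WRKY46, WRKY48, WRKY53 and WRKY69), 2 of the 7 called higher (WRKY38 and WRKY54) and 6 of the 16 not called kept their call under every alternative that tested them. The count of lower members stayed within 1.5 times of 19, except that 30 probes were lower when every probe was tested on its own. It was 15 to 23 with 1 array left out, beside 20.9% to 27.7% of all genes. At an adjusted p under 0.01 it was 14, beside 16.5% of all genes. With a 2-fold minimum it was 13, beside 10.5%. The count of higher members, 7 beside 29.5% of all genes, was less firm. It was 4 with scaling by the median (all genes 27.6%) or with no filter on dim probes (all genes 21.6%). It was 2 with spike-in scaling (all genes 10.5%) or in the authors' value table (all genes 21.5%). It was also 2 at an adjusted p under 0.01 (all genes 20.3%) or with a 2-fold minimum (all genes 10.7%). With the replicate number as a block, 3 were higher (all genes 24.0%) and 15 lower (all genes 19.9%). With 1 array left out, 4 to 5 were higher (all genes 25.0% to 30.2%). Without nst1 nst3 arrays 2 and 3 together, 21 were lower (all genes 25.7%) and 5 higher (all genes 30.9%). The median difference was -0.98 with spike-in scaling and -0.65 to -0.35 with 1 array left out, and the median SD among nst1 nst3 arrays was 0.29 to 0.39 with 1 of them left out. The cause of these changes was not tested. Same-numbered arrays of the 2 groups correlated at -0.40 to 0.16 in their deviations and 0 of 4 pairs matched best, so the numbers pair nothing. WRKY17 was not called in the value table (-0.69), WRKY57 not with normexp (-0.17), and WRKY39 neither in the value table (0.50) nor with spike-in scaling (0.04). Signal over background limits the 9 untested members and the 5 tested ones at the floor on some array. Of the latter, WRKY38 was above background on no nst1 nst3 array, so its kept call sets signal against values not above background. A planned search for promoter motifs was not run, since promoter sequences were not used here.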
